A study of Mus musculus with 2 samples.

Results

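Neat1 and Malat1 are long nuclear RNAs, and Sfpq, Nono, Pspc1 and Rbm14 encode proteins of the paraspeckle, the nuclear body that is built on Neat1. Their RNAs were followed in chromatin isolated by enChIP, in which a FLAG-tagged DNA-binding protein is crosslinked to its target and pulled down with its surroundings. Every transcript row with one of these 6 gene symbols was taken, which gave 23 of the 48876 transcripts listed. The 2 scaffold RNAs account for 8 of these rows and the genes of the 4 proteins for 15. Some of these 15 are retained-intron or other transcripts not annotated as coding, and their reads are part of the protein mRNA values below.

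The RNA came from Ba/F3, a mouse hematopoietic cell line that grows on interleukin-3 and is labelled here as C3H. The control cells stably expressed 3xFNLDD, the bacterial protein LexA with a FLAG tag and a nuclear localization signal, and the other cells expressed 3xFN-Tel-TAL, a TAL protein with the same tag and signal that recognizes telomeric repeats. Both lines were fixed with formaldehyde, and their sonicated chromatin was immunoprecipitated with an anti-FLAG antibody. The sources used here do not say whether either line is 1 clone. Each line gave 1 library, called the control (3xFNLDD, 7206183 reads) and the Tel-TAL library (3xFN-Tel-TAL, 9774844 reads) from here on, so no difference has a replicate check and no test between conditions was possible. Of 10 hematopoietic markers, the interleukin-3 receptor subunits Csf2rb (583 and 1052 reads) and Csf2rb2 (751 and 849 reads) were the deepest. Myb, Spn and Ptprc also had 100 or more reads over both libraries, and Il3ra had 17 and 68. Vpreb1 (4 and 4 reads), Cd79b (4 and 2), Kit (2 and 2) and Igll1 (2 and 0) were lowest. They were no deeper than any marker of other tissues that had rows. The 8 markers of other tissues that had rows summed to 99 and 90 reads. Pecam1 was the deepest (39 and 67 reads), and each of the other 7 had fewer reads in the Tel-TAL library, 60 and 23 in sum, with Myh6 at 8 and 0.

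Neat1 is transcribed as a long and a short form that share their start, and the long form organizes paraspeckles by binding the related proteins SFPQ, NONO and PSPC1 along its length. RBM14, which carries a prion-like domain, is also needed for paraspeckles to form. Malat1 lies next to Neat1 in the genome, but it gathers in nuclear speckles, which store splicing factors, and is not needed for paraspeckles. Malat1 and the long form of Neat1 end without a poly(A) tail. A tRNA-like element is cut off their precursors, and the new end is protected by a triple helix of an A-rich tract with U-rich motifs.

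In RefSeq positions of GRCm38.p6, Malat1 spans chr19:5795690-5802672 and Neat1 spans chr19:5824708-5845480, with 22035 bases between them. Rbm14 is on the same chromosome (chr19:4800566-4811634), Sfpq on chromosome 4 (chr4:127020716-127051101), Pspc1 on chromosome 14 (chr14:56722441-56778318) and Nono on chromosome X (chrX:101429560-101448593). In the GENCODE M1 annotation on NCBIM37, the deepest transcript of each scaffold RNA is a single exon on the reverse strand, of 20771 nt for Neat1 and 6982 nt for Malat1. The stretches that hold their mature ends are shown because this kind of end is what Malat1 and the long form of Neat1 share. They are written 5′ to 3′ as DNA of NCBIM37, reverse strand, from chr19:5824643-5824770 for Neat1 and chr19:5795917-5796037 for Malat1. Capitals mark the A-rich motif AAAAAGCAAAA, which is the last 11 bases of the annotated Neat1 transcript, and the U-rich motif TTTTGCTTTT, which is the reverse complement of the last 10 of these, and the lower-case bases after the second motif run into the tRNA-like element.
Neat1: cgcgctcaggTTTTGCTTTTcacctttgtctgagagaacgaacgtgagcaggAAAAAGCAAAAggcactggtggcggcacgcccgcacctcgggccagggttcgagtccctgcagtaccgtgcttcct
Malat1: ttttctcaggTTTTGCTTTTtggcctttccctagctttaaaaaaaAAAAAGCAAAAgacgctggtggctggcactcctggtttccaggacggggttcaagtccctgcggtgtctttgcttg

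The marked motifs are separated by 32 bases in Neat1 and by 25 bases in Malat1. In Malat1 the last of these 25 bases are themselves A, so its A-rich tract is longer than the part marked. No other U-rich motif was searched for. The Malat1 annotation runs on for 292 bases beyond the A-rich motif. A window was counted where both motifs lay on the same strand. Both were found in 3 of 454231 windows of 128 bases on chromosome 19 (0.00066%), either strand searched, and in 13 of 29137 listed transcripts of at least 1000 nt (0.0446%). The A-rich motif was read from Neat1 itself, and Neat1 and Malat1 are both among the 13. Within a transcript the motifs could lie at any distance, so the shares of windows and of transcripts are not comparable. The table of read counts gives 1 number per transcript, so the reads on these ends cannot be separated from the reads on the rest of each RNA.

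Because Tel-TAL binds telomeric repeats in DNA, the 2 RNAs were also searched for TTAGGG and its reverse complement CCCTAA. Neat1 held 4 such hexamers and Malat1 held 1, shown here in capitals with 12 bases on either side, reverse strand of chromosome 19 in NCBIM37.
Neat1, chr19:5843547-5843576: agcttttatgacTTAGGGcctggctgtgta
Neat1, chr19:5835215-5835244: accagtacttgtCCCTAAccttgggcatgc
Neat1, chr19:5831655-5831684: cttggacttgagTTAGGGctaaagaaataa
Neat1, chr19:5825008-5825037: ccctcgggtggcTTAGGGagtgtctacaca
Malat1, chr19:5798776-5798805: cagtattgcatgTTAGGGatagataagtgc

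A TTAGGG followed directly by another TTAGGG was present on neither strand of the deepest transcript of any of the 6 genes. Such a tandem was present in 19 of 45887 listed transcripts (0.0414%) and in 1.36% of chromosome 19 windows as long as Neat1. Windows of that length had a median of 8 hexamers, and 96.5% of them had at least the 4 of Neat1. Windows as long as Malat1 had a median of 3, and 93.5% of them had at least 1. In the deepest transcript of each mRNA gene, Pspc1 held 2 hexamers, Nono held 1, and Sfpq and Rbm14 held 0.

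Neat1, the paraspeckle scaffold, had a higher level in the Tel-TAL library. Its 3 transcripts summed to 585 control reads, or 81.2 RPM (reads per 1000000 library reads), and to 1468 Tel-TAL reads, or 150.2 RPM. RPM is a share of a library's reads. Both libraries are anti-FLAG isolates, and the series has no library of input RNA. Differences in RNA on the isolated chromatin, in background carry-over, in cells or chromatin recovered and in RNA per cell therefore cannot be told apart. The log2 ratio of RPM, 3xFN-Tel-TAL over 3xFNLDD, was 0.89, a ratio of 1.85. Its 95% interval was 0.75 to 1.03 on the log2 scale. Intervals here are exact Clopper-Pearson intervals of the Tel-TAL library's share of a gene's reads. They cover counting error only, since PCR copies of 1 molecule cannot be recognized here without molecular identifiers, and they compare these 2 libraries, not the conditions. The long transcript ENSMUST00000173672 took 99.8% of the Neat1 reads. The spliced transcripts ENSMUST00000174829 and ENSMUST00000174287 each had 0 control and 2 Tel-TAL reads, too few for a ratio. All bases of both lie within the long transcript, so the counts do not separate the forms of Neat1.

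Malat1, the speckle RNA, was the deeper of the 2 scaffold RNAs and had the smaller ratio. Its 4312 control reads (598 RPM) stood against 8556 Tel-TAL reads (875 RPM). The log2 ratio was 0.55 (95% interval 0.50 to 0.60), or a ratio of 1.46. Its transcript ENSMUST00000172812 alone had 4303 and 8544 reads. The 4 shorter Malat1 transcripts had at most 9 reads in either library, the highest being ENSMUST00000173523 with 6 and 9 reads. Among 178 non-coding transcripts of at least 1000 nt and 100 reads in both libraries together, the deepest Malat1 transcript ranked 2 by reads, after mt-Rnr2, and the deepest Neat1 transcript ranked 7. These 178 transcripts had a median log2 ratio of 0.17 with quartiles of -0.23 and 0.51, so both scaffold RNAs were above the upper quartile of long non-coding transcripts.

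Reads of Neat1 relative to reads of Malat1 do not depend on how the libraries are scaled. There were 0.136 Neat1 reads for each Malat1 read in the control and 0.172 in the Tel-TAL library. The second value was 1.26 times the first, with an exact conditional 95% interval of 1.14 to 1.4. Neat1 therefore took a larger share of the reads of the 2 scaffold RNAs in the Tel-TAL library, 14.6% against 11.9%. Divided by the length of the deepest transcript, levels were 3.91 and 7.23 RPM per kb for Neat1 and 85.7 and 125 RPM per kb for Malat1, control first. The Neat1 values spread all reads over the 20771 nt of the long form. They would be too low if many reads came from the short form, which the counts do not separate.

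Some reads of the scaffold RNAs may belong to other loci. In Malat1, 593 nt (8.49% of it) are at least 90% identical to 43 other listed transcripts over at least 50% of their length. Of these 43, 40 are short miscellaneous RNAs of 213 to 333 nt. Another is Gm20417, all 425 nt of which lie at the Malat1 locus itself. Those 425 nt are counted in the 593, so the part of Malat1 that matches other loci was not measured separately. These 40 had 2911 control and 4886 Tel-TAL reads, and their log2 ratio was 0.31 (95% interval 0.24 to 0.37). In Neat1, 253 nt (1.22%) matched 13 listed transcripts in the same way, 12 of them miscellaneous RNAs with 1025 and 1594 reads and a log2 ratio of 0.20 (95% interval 0.08 to 0.31). Of these 12, 9 are also among the 40 of Malat1, so the 2 sums share 739 control and 1118 Tel-TAL reads. Gm20417, with 14 and 45 reads, lies wholly within Malat1 on the opposite strand. The library kit does not mark strand, so its reads and those of Malat1 cannot be told apart. Among the mRNAs, Nono alone had such a copy, the pseudogene Gm8806, with 0 and 1 reads.

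**Figure D1:**
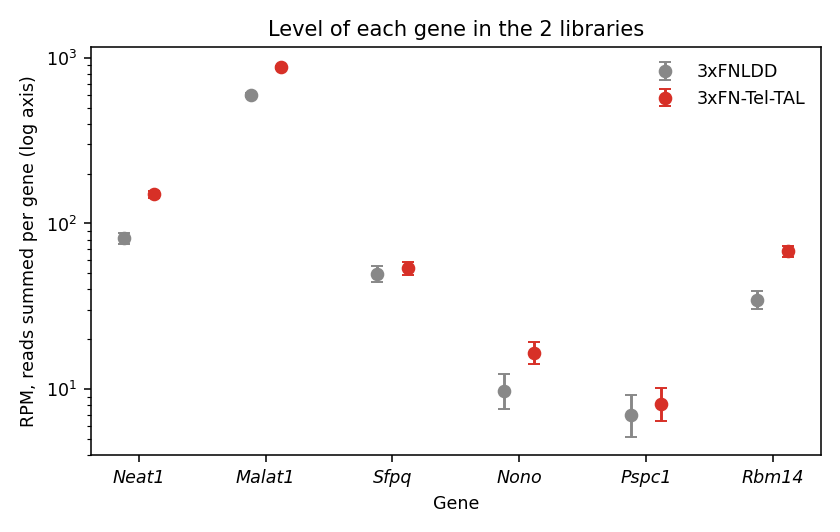
RPM summed over each gene (log axis) in the 3xFNLDD library (grey) and the 3xFN-Tel-TAL library (red), 1 library each, with exact 95% Poisson intervals of the counts. Neat1 goes from 81.2 to 150.2 RPM and Rbm14 from 34.6 to 67.9 RPM, whereas the intervals of the libraries overlap for Sfpq and for Pspc1.

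Among the mRNAs of the 3 related proteins SFPQ, NONO and PSPC1, the ratio of Nono was 1.58 times that of Sfpq (exact conditional 95% interval 1.15 to 2.19), and Pspc1 could not be separated from either at this depth. Sfpq, which encodes a splicing factor, was the deepest of them, with 357 control reads (49.5 RPM) and 523 Tel-TAL reads (53.5 RPM). The log2 ratio of Sfpq was 0.11, and the 95% interval of -0.09 to 0.31 includes 0. Nono, which encodes the usual partner of SFPQ, had 70 reads (9.71 RPM) and 162 reads (16.6 RPM). The log2 ratio of Nono was 0.77 (95% interval 0.36 to 1.2), a ratio of 1.71. Pspc1, whose product pairs with NONO, had 50 reads (6.94 RPM) and 79 reads (8.08 RPM). Its log2 ratio of 0.22 has a 95% interval from -0.31 to 0.76, which holds both 0 and ratios above 1.4.

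Rbm14 had the highest ratio of the 6 genes. The control held 249 of its reads (34.6 RPM) and the Tel-TAL library 664 (67.9 RPM). This is a log2 ratio of 0.98 (95% interval 0.76 to 1.19), or a ratio of 1.97. Both of its listed transcripts were above 1, ENSMUST00000006625 with 215 and 586 reads (log2 ratio 1.01, 95% interval 0.78 to 1.24) and ENSMUST00000113793 with 34 and 78 reads (0.76, 95% interval 0.16 to 1.38). The predicted gene Gm21992 has a transcript, ENSMUST00000172000, that shares 432 bases with Rbm14 on the same strand and had 0 and 1 reads. Its other listed transcript, ENSMUST00000006628, shares none with Rbm14 and had 70 and 211 reads.

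The 4 protein mRNAs together, with all listed transcripts of each gene counted, had 726 control and 1428 Tel-TAL reads. This is a log2 ratio of 0.54 (95% interval 0.41 to 0.67). The 2 scaffold RNAs together had 4897 and 10024 reads, and their log2 ratio was 0.59 (95% interval 0.54 to 0.64). There were thus 6.75 scaffold reads for each protein mRNA read in the control and 7.02 in the Tel-TAL library, and the ratio between the libraries was 1.04, with an exact conditional 95% interval of 0.944 to 1.15 that includes 1. For Malat1 alone against the 4 mRNAs it was 1.01 (95% interval 0.915 to 1.11). For Neat1 alone it was 1.28 (95% interval 1.12 to 1.46). Malat1 supplies most of the scaffold reads, and Sfpq and Rbm14 most of the mRNA reads, so these sums mainly describe those genes.

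Ordered by ratio, the genes ran Rbm14, Neat1, Nono, Malat1, Pspc1 and Sfpq, with scaffold RNAs and mRNAs interleaved. All 5 pairs of neighbours in that order had a ratio of ratios whose interval included 1, and that interval is free of scaling. Of all 15 pairs, 8 had an interval above 1. The order comes from these same data and the higher gene was always divided by the lower. No ratio of ratios could therefore be under 1, and neighbours were the closest pairs by construction. A like share over pairs of all genes was not computed. The ratio of Rbm14 was 1.82 times that of Sfpq (95% interval 1.49 to 2.23), and the ratio of Neat1 was 1.71 times that of Sfpq (95% interval 1.45 to 2.03). Rbm14 was also 1.34 times Malat1 (95% interval 1.15 to 1.57), whereas Rbm14 against Neat1 gave 1.06 (95% interval 0.890 to 1.27).

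Most member transcripts were shallow. Of the 23 member transcripts, 7 had 100 or more reads over both libraries, 4 had 20 to 99 and 12 had fewer than 20. Of the 7, 5 were above an RPM ratio of 1.4, where 43.7% of all transcripts of that depth were, and none was below 1/1.4, where 6.65% were. For Sfpq, the coding transcript ENSMUST00000030623 had 259 and 381 reads, and its log2 ratio was 0.12 (95% interval -0.11 to 0.35). Its 3 other listed transcripts are short non-coding ones that lie inside the span of the coding one, and 355 to 497 of their bases lie outside the exons of the coding transcript. ENSMUST00000125453 had 43 and 78 reads (log2 ratio 0.42) and ENSMUST00000143168 had 28 and 46 reads (0.28), and both intervals include 0.

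ENSMUST00000144630 was the one Sfpq transcript with fewer reads in the Tel-TAL library, with 27 in the control and 18 there. Its log2 ratio was -1.02 (95% interval -1.97 to -0.11), and its ratio was 0.453 times that of the coding transcript (95% interval 0.230 to 0.875). It overlaps the other Sfpq transcripts, and reads in shared sequence could have been assigned to either. All non-coding Sfpq transcripts together took 27.5% of the Sfpq reads in the control and 27.2% in the Tel-TAL library. For Nono, the 4 transcripts with retained introns took 22.9% (16 of its reads) and 15.4% (25 reads). The ratio of non-coding to coding Nono reads was 0.616 times as high in the Tel-TAL library, with a 95% interval of 0.290 to 1.34, so a change in retained introns was not detectable at this depth. The coding transcript ENSMUST00000033673 of Nono had 54 and 137 reads, and its log2 ratio was 0.90 (95% interval 0.44 to 1.39). Pspc1 had 40 and 59 reads on ENSMUST00000022507 and 10 and 16 on ENSMUST00000163924, while its other 2 transcripts, 1 with a retained intron and 1 marked for nonsense-mediated decay, each had 0 and 2 reads.

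**Figure D2:**
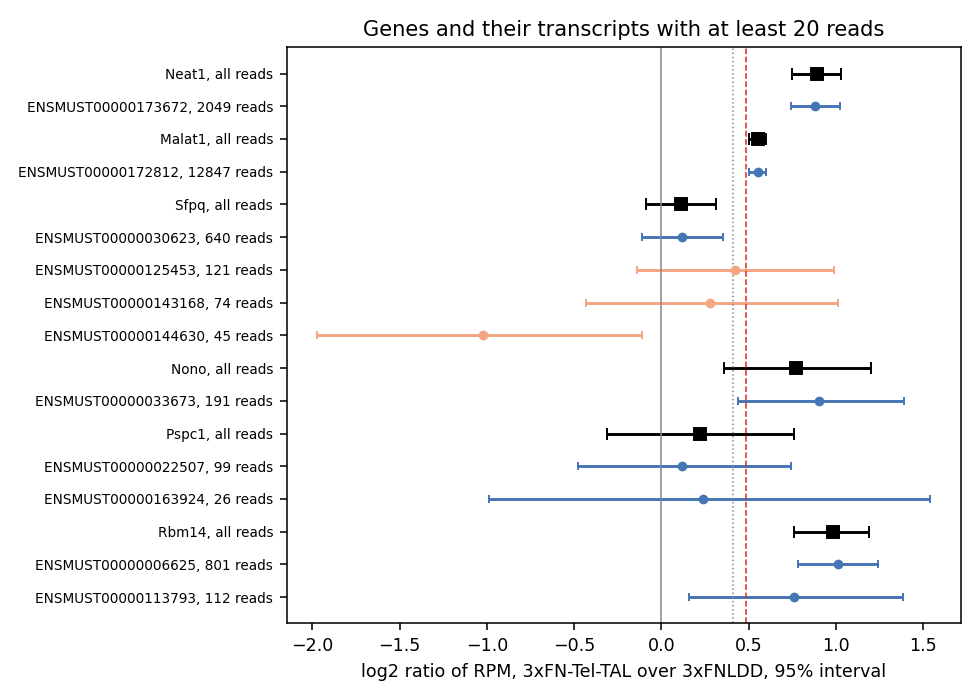
Log2 ratio of RPM, 3xFN-Tel-TAL over 3xFNLDD, for each gene (black squares, reads of all transcripts) and each of its transcripts with 20 or more reads over both libraries. Blue circles are coding transcripts and the 2 scaffold RNAs, orange circles are non-coding transcripts of Sfpq. Bars are exact 95% intervals, the solid line is 0, the dotted line the median of all genes (0.41) and the dashed line a ratio of 1.4. ENSMUST00000144630 of Sfpq, at -1.02, is the only one left of 0.

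These ratios stood within a shift that most genes shared. Of the 5933 genes with 100 or more reads over both libraries, 42.8% had a ratio above 1.4 and 5.83% had one below 1/1.4, and the median log2 ratio was 0.41. Against this, 4 of the 6 genes were above 1.4 (Rbm14, Neat1, Nono and Malat1) and none was below 1/1.4. The study set its threshold of 1.4 on the ratio of read counts, for non-coding RNAs, and with library totals that differ by 1.36 times this is an RPM ratio of 1.03. On read counts all 6 genes were above 1.4, Sfpq (1.46) and Pspc1 (1.58) included, as were 78.5% of the 5933 genes. The study lists Neat1 as telomere-associated from more than this threshold. It also reports imaging in human cells, where NEAT1 RNA co-localized with a telomere marker protein, though not at all of its foci. The 95% bound was above 1.4 for Rbm14, Neat1 and Malat1, where it was for 14.8% of all genes. This bound depends on depth, and Malat1, with 12868 reads, passed it at a ratio of only 1.46. Rbm14 was at percentile 87.1 of all genes, Neat1 at 83.7, Nono at 78.4 and Malat1 at 62.6, and Pspc1 (33.2) and Sfpq (25.5) were below the middle.

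**Figure D3:**
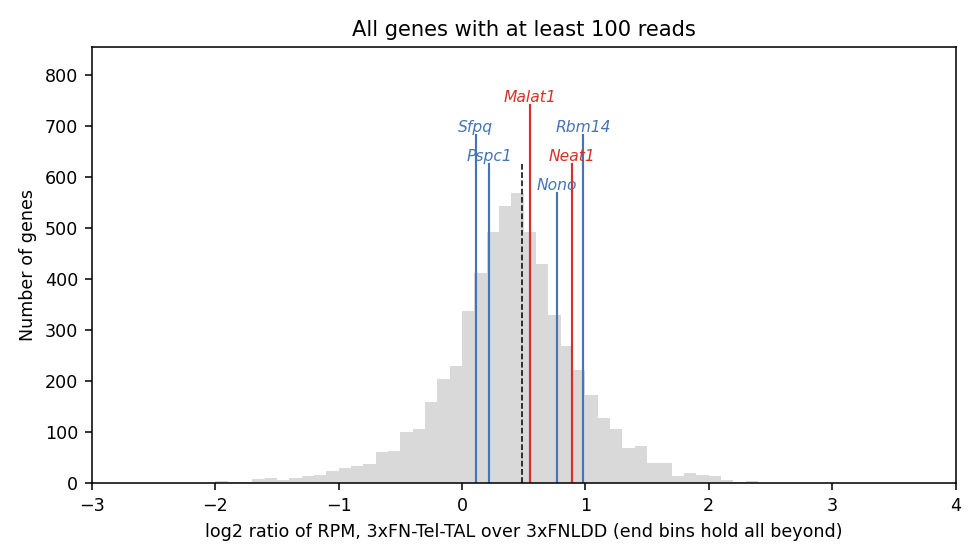
Number of genes by log2 ratio of RPM, 3xFN-Tel-TAL over 3xFNLDD, for the 5933 genes with 100 or more reads over both libraries. Coloured lines mark Neat1 and Malat1 (red) and the 4 protein mRNAs (blue), and the dashed line a ratio of 1.4. Rbm14 (0.98) and Neat1 (0.89) are on the right flank, Malat1 (0.55) is near the peak, and Pspc1 (0.22) and Sfpq (0.11) are on its left.

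The shared shift depends on the totals used. In all, 11 RNAs that each held more than 1% of a library took 84.8% of the control reads and 81.1% of the Tel-TAL reads. Scaling with TMM, which edgeR computes as a trimmed mean of gene ratios, lowered every log2 ratio by the same amount and left the median of all genes at 0.04. With TMM scaling, Neat1 (0.52) and Rbm14 (0.61) stayed above 1.4, Malat1 (0.18) and Nono (0.40) did not, and Sfpq (-0.26) and Pspc1 (-0.15) changed sign.

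**Figure D4:**
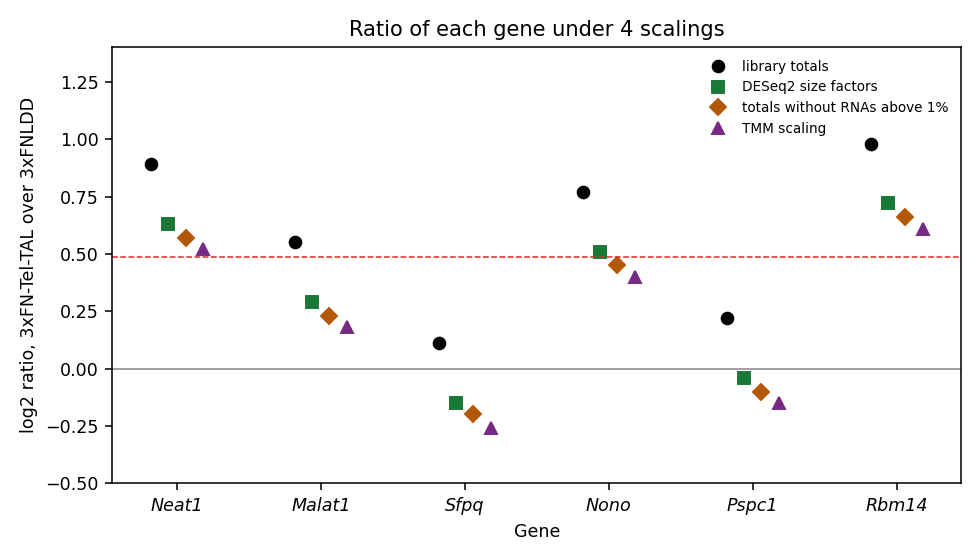
Log2 ratio of each gene, 3xFN-Tel-TAL over 3xFNLDD, with library totals (circles), DESeq2 size factors (squares), totals without RNAs above 1% of a library (diamonds) and TMM (triangles). The dashed line is a ratio of 1.4. Neat1 and Rbm14 are above it in each case, Malat1 only with library totals, and Sfpq and Pspc1 cross 0.

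Other paraspeckle proteins are encoded by 26 listed genes, all with rows, and 18 of them had 100 or more reads. Of these, 7 (38.9%) had a ratio above 1.4, none was below 1/1.4, and the median log2 ratio was 0.30, where all genes had 42.8% and 0.41. With each of the other 3 scalings drawn above, 0 of the 18 were above 1.4. Of all genes, 23.2% were above it with DESeq2 size factors, 20.2% with totals without RNAs above 1% and 17.6% with TMM. The 3 highest were Srsf10, a splicing regulator, with 85 and 189 reads (log2 ratio 0.71, 95% interval 0.34 to 1.1), Hnrnpf with 135 and 293 reads (0.68, 0.38 to 0.98) and Hnrnpul1 with 196 and 411 reads (0.63, 0.38 to 0.88). The 3 lowest were Cpsf6, a 3′-end processing factor, with 120 and 183 reads (0.17, -0.17 to 0.51), Hnrnpr with 65 and 92 reads (0.06, -0.41 to 0.54) and Rbm4b with 279 and 367 reads (-0.04, -0.27 to 0.19). No gene of the set had its 95% bound above 1.4.

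Proteins of the nuclear speckle, where Malat1 resides, gave a like picture. All 15 listed genes had rows and 13 had at least 100 reads. Of these, 4 (30.8%) were above 1.4 and none was below 1/1.4, with a median log2 ratio of 0.33. Ddx39b, an RNA helicase of mRNA export, was highest with 313 and 719 reads (0.76, 95% interval 0.57 to 0.96), followed by Pnn (120 and 243 reads, 0.58) and Srsf1 (136 and 267 reads, 0.53). Srrm1 (245 and 328 reads, -0.02), Sf3b1 (102 and 129 reads, -0.10) and Prpf8 (179 and 221 reads, -0.14) were lowest, with intervals that include 0.

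**Figure D5:**
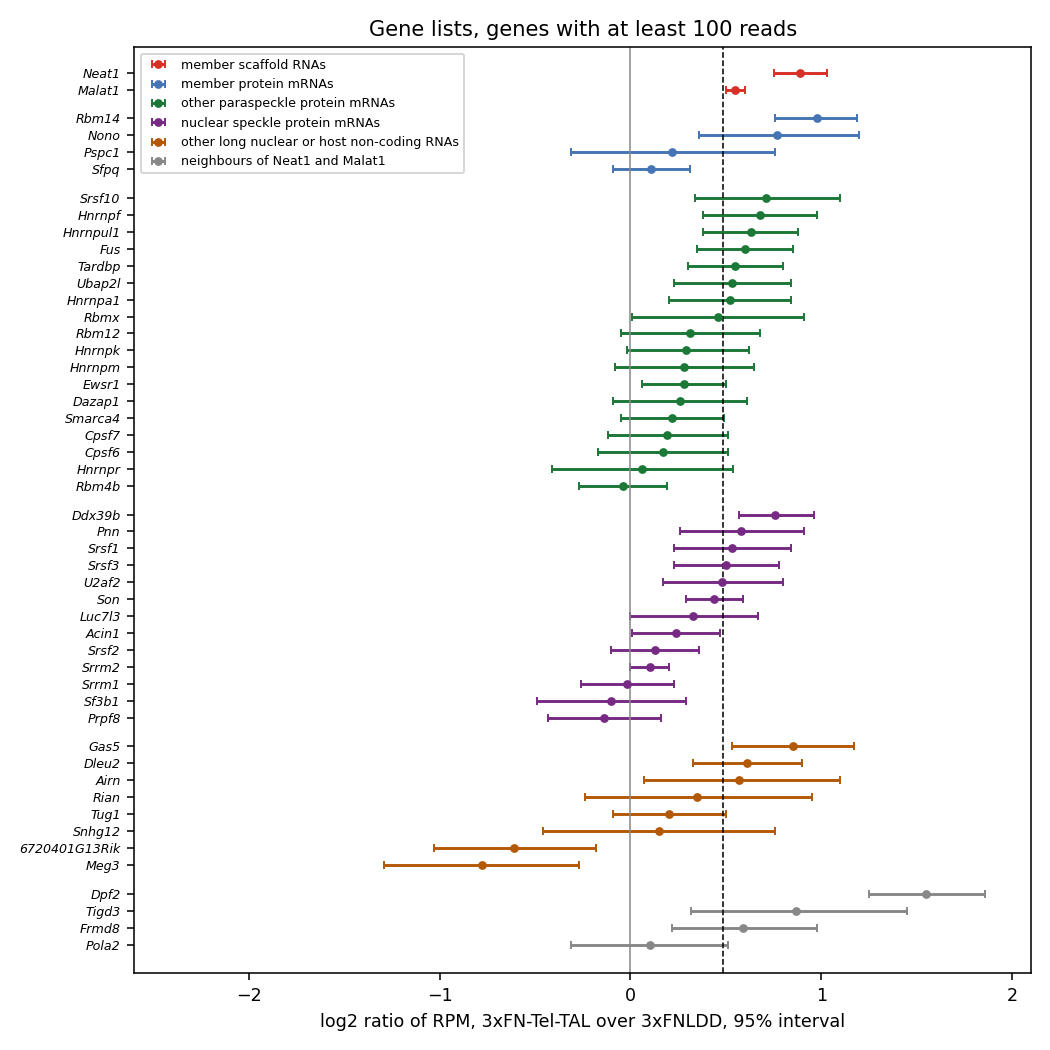
Log2 ratio of RPM, 3xFN-Tel-TAL over 3xFNLDD, with exact 95% intervals, for the genes of each list with 100 or more reads over both libraries. The solid line is 0 and the dashed line a ratio of 1.4. Rbm14 (0.98) and Neat1 (0.89) are higher than each of the other paraspeckle and speckle protein mRNAs drawn, of which Ddx39b (0.76) is highest. The intervals of Neat1 and Ddx39b overlap. Under the minimum and not drawn, Cirbp (1.22, 75 reads) and Rnps1 (1.09, 97 reads) were higher than both. The other genes of those lists under the minimum were lower or had too few reads for a ratio.

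The genes nearest to Neat1 in log2 RPM over the 2 libraries were Scd2 (distance 0.165), Spns2 (0.201) and Snora73b (0.266). Scd2, a fatty acid desaturase, had 545 and 1606 reads, and Snora73b, a small nucleolar RNA, had 488 and 1417 reads. For Malat1 the nearest were Gm24950 (distance 0.344), Gm17131 (0.540) and mt-Rnr1 (0.545), and none of these had a log2 ratio above 0.08. This likeness is of level as much as of ratio, and it rests on 2 values per gene.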

How the data were processed

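The authors deposited a whole-number read count for each Ensembl transcript of each library, without normalization, and RPM, the count per 1000000 of the library's summed counts. Recomputed RPM differed from the deposited RPM by rounding only. Per the labels, libraries were made from 60 ng of RNA with the TruSeq RNA v2 kit (the study's methods give other amounts of purified RNA), and cutadapt and the builds GRCm38 and mm10 are named in the submitters' processing notes. Aligner, annotation release and treatment of reads that match several transcripts are not given in the sources used here.

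Counts were joined on transcript ID and summed per gene symbol. Log2 ratios of RPM, exact Clopper-Pearson intervals and conditional odds-ratio intervals were computed in Python 3.11.15 with scipy 1.17.1, without a pseudocount. At most 3 reads in each library gave no ratio. No p-value is given, since there is 1 library per group. The threshold of 1.4 is the number the study set on the ratio of read counts, applied here to the RPM ratio, and the minimum of 100 reads applies to both libraries together. Scalings used edgeR 4.0.16 (rows with at least 10 reads) and DESeq2 1.42.0. Interval code was tested on simulated data. Transcript types, lengths and sequences came from GENCODE M1 (NCBIM37), which holds 45887 of the 48876 transcripts and all 23 member rows. On chromosome 19 the RefSeq promoter windows of Malat1 and Rbm14 in GRCm38.p6 were identical in NCBIM37 at the same positions. Near copies were sought with BLAST 2.17.0.

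The members and lists were chosen with earlier results of these data known. In each list the 3 highest and the 3 lowest log2 ratios among genes with at least 100 reads are named (all, in lists with 6 or fewer such genes), along with genes at 0 reads in a library. The 3 genes nearest to each scaffold RNA in log2 RPM are named too. Of the listed chromosome 19 neighbours, 1 gene is not reported here and is left out of that list's counts. Zfp24 and Firre were found under the older symbols Zfp191 and 6720401G13Rik.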

Additional observations from a re-analysis of the deposited data

How the results depend on the processing

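No paired analysis was possible because each condition has 1 library, and no library could be left out in turn. Counting reads of the deepest transcript only, or adding 1 read to each count, moved no gene's log2 ratio outside its interval, and the deepest transcripts alone kept the Neat1 to Malat1 and the scaffold to mRNA ratio within theirs.

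Scaling shifted every log2 ratio, by -0.26 with DESeq2 size factors, -0.32 with totals without RNAs above 1% of a library and -0.37 with TMM. In that order, the log2 ratio was 0.63, 0.57 and 0.52 for Neat1, 0.29, 0.23 and 0.18 for Malat1, -0.15, -0.20 and -0.26 for Sfpq, and 0.72, 0.66 and 0.61 for Rbm14. Nono and Pspc1 stayed within their intervals, but of these scalings only DESeq2 size factors kept Nono above 1.4. The genes above 1.4 numbered 1375, 1198 and 1043 of 5933 (23.2%, 20.2% and 17.6%) in place of 2539 (42.8%). Those below 1/1.4 numbered 631, 750 and 856 in place of 346. Calls above made up 68.5%, 61.5% and 54.9% of all calls in place of 88.0%. The count above 1.4 became 0, 0 and 0 for the other paraspeckle mRNAs (7 of 18 with library totals). It became 1, 0 and 0 for speckle mRNAs (4 of 13), and 1, 1 and 0 for other long non-coding RNAs (3 of 8). These counts have no replicated test behind them.

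For all genes, the counts above and below were 5148 and 1435 with at least 20 reads, 1275 and 180 with at least 200, 8840 and 7678 with no minimum (0.5 added where a library had 0), 880 and 145 with the 95% bound past 1.4, and 710 and 100 at a ratio of 2. The last 2 settings gave 0 and 0 above for the 18 other paraspeckle mRNAs and 1 and 0 for the 13 speckle mRNAs. They gave 1 and 0 for the 8 other long non-coding RNAs and 1 and 1 for the 4 neighbours (3 at a ratio of 1.4). With no minimum, 5 of 12 other long non-coding RNAs were above 1.4, where 36.7% of all genes were. The ratio of unscaled read counts was added after seeing the data. It gave a log2 ratio of 1.33 for Neat1, 0.99 for Malat1, 0.55 for Sfpq, 1.21 for Nono and 1.42 for Rbm14. The counts above 1.4 were 17 of 18 other paraspeckle mRNAs, 10 of 13 speckle mRNAs and 6 of 8 other long non-coding RNAs. Of all 5933 genes, 4660 (78.5%) were above and 116 below, with 97.6% of calls above. Other counts moved by at most 1.5 times. Pspc1, with 129 reads, and the transcripts under 100 reads are limited by depth.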

Other observations

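Other long nuclear or host non-coding RNAs were listed beside Neat1 and Malat1, and they went both ways. Of 14 listed, 12 had rows and 8 had at least 100 reads, of which 3 were above a ratio of 1.4 and 2 below 1/1.4, shares of all genes being 42.8% and 5.83%. Gas5, a host of small nucleolar RNAs, had 114 control and 278 Tel-TAL reads (log2 ratio 0.85, 95% interval 0.53 to 1.17). Dleu2, a microRNA host, had 155 and 321 reads (0.61, 95% interval 0.33 to 0.90), and Airn, an imprinted antisense RNA, had 49 and 99 reads (0.57, 95% interval 0.07 to 1.1). Meg3, an imprinted RNA, had 76 and 60 reads (-0.78, 95% interval -1.29 to -0.27). Firre, which anchors chromosomal regions in the nucleus and is listed as 6720401G13Rik, had 101 and 90 reads (-0.61, 95% interval -1.03 to -0.18). Snhg12 (40 and 60 reads) was at 0.15, with an interval that includes 0, and Mirg had 0 and 2 reads. Kcnq1ot1 and Snhg1 had no row under these symbols and were not analysed here. With TMM scaling none of the 8 was above 1.4, where 17.6% of all genes were.

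Protein-coding neighbours of Neat1 and Malat1 on chromosome 19 did not share 1 ratio. Of the 7 genes reported, 4 had at least 100 reads, of which 3 were above 1.4, as were 42.8% of all genes. Dpf2, a subunit of the BAF chromatin remodeler, had 112 and 444 reads, and its log2 ratio was 1.55 (95% interval 1.25 to 1.86). Tigd3 had 39 and 97 reads (0.87, 95% interval 0.32 to 1.45), and Frmd8, the gene next to Neat1, had 88 and 180 reads (0.59, 95% interval 0.22 to 0.98). Pola2, a subunit of DNA polymerase alpha, had 86 and 125 reads (0.10, 95% interval -0.31 to 0.51). Ltbp3, under the minimum with 22 and 3 reads, was at -3.31 (95% interval -5.70 to -1.58), and it is named after its values were seen. The other neighbours under the minimum were above 0. Slc25a45 had 16 and 40 reads (0.88, 95% interval 0.01 to 1.82), and Cdc42ep2 had 6 and 10 (0.30, 95% interval -1.31 to 2.04). With TMM scaling 2 of the 4 were above 1.4, as were 17.6% of all genes.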
